A study of Homo sapiens with 12 samples.

Results

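Lamins, the lamin B receptor and high mobility group (HMG) genes were followed in MRC5 cells, a human embryonic lung fibroblast line. The set holds 10 genes, taken by symbol from the table of raw read counts: LMNA, LMNB1, LMNB2, LBR, HMGB1, HMGB2, HMGB3, HMGA1, HMGA2 and HMGN2. They are 10 of the 57500 genes listed, and 10 of 10 passed the filter on low counts that left 16251 genes to test. The study asked how transporters of the inner mitochondrial membrane bear on senescent fibroblasts. RNA was sequenced in 4 groups of 3 libraries. Prol were proliferating cells without irradiation. Sen(IR) were cells made senescent by 20 Gy of X-rays. Sen(IR)+UK5099 were irradiated cells given UK5099, an inhibitor of the mitochondrial pyruvate carrier, at 100 μM. Sen(IR)+CTPI2 were irradiated cells given CTPI2, an inhibitor of the mitochondrial citrate carrier SLC25A1, for which the methods list 15 or 30 μM. Per the methods, inhibitors were added 1 day after irradiation and kept in the medium for 12 days. For irradiated cells in general, the methods give collection 10 to 12 days after irradiation. All 3 irradiated groups thus share the irradiation, and Prol differs from the treated groups in both irradiation and inhibitor. All libraries come from a single cell line. The study's legends call the RNA-seq replicates independent, without saying how they were separated, and the labels do not say whether they were separate cultures, so p-values measure the spread between these samples.

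Lamins are the intermediate filaments of the nuclear lamina, the meshwork under the inner nuclear membrane. LMNA encodes the A-type lamins A and C, and LMNB1 and LMNB2 encode the B-type lamins. LBR is an inner nuclear membrane protein that binds B-type lamins and heterochromatin, and it also has sterol reductase activity. HMG proteins are abundant, non-histone chromatin proteins: HMGB proteins bend DNA through their HMG boxes, HMGA proteins bind AT-rich DNA through AT-hooks, and HMGN proteins bind nucleosomes. Loss of lamin B1 is a widely used marker of senescent fibroblasts, HMGB1 is known to leave the nucleus in senescent cells, and HMGA proteins are known components of senescence-associated heterochromatin foci.

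Upstream sequences of the RefSeq table (GRCh38.p14) were searched because 9 of the 10 genes were lower in Sen(IR) than in Prol, as described next. The table gave 15 start sites for 8 of the genes, and none for HMGB2 and HMGA2. In the 250 bases before each start, the motifs searched on both strands were CCAAT (the box bound by NF-Y), TTTGAA (the core of the cell cycle homology region) and 4 E2F-type words, of which the first was TTCCCGC, the second was TTCGCGC, the third was TTGCCGC and the fourth was TTGGCGC. Matches to CCAAT were found in 7 of the 15 windows, belonging to 6 genes (LMNA, LMNB1, HMGB1, HMGB3, HMGA1 and HMGN2), against 32.0% of the 35116 windows in the table. A TTTGAA match was found in 3 of the windows, those of LMNB2 and HMGB3 shown here and another window of HMGB1 (13.3% of all windows), and an E2F-type word in 1, of LMNA (10.9%). The 4 windows below are shown because HMGB1 and HMGB3 each held 3 CCAAT matches, because LMNB2 and HMGB1 had the closest profiles of any pair in the set, and because HMGN2 was among the genes that UK5099 raised. A count of 3 or more CCAAT matches, a limit chosen after the values were seen, occurred in 2.93% of all windows. Each sequence runs 5′ to 3′ on the gene's strand, and capitals mark CCAAT or TTTGAA. Positions are counted back from the start site and give the first base of a match. The matches are letters in these windows and say nothing of binding.
LMNB2, minus strand, chr19:2456960-2457209 (TTTGAA at -246): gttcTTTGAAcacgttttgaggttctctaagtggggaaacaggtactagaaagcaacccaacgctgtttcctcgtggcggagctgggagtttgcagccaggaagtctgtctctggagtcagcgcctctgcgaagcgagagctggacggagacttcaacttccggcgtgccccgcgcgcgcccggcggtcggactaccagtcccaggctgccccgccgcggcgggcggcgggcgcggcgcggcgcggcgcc
HMGB1, minus strand, chr13:30465937-30466186 (CCAAT at -103, -59 and -28): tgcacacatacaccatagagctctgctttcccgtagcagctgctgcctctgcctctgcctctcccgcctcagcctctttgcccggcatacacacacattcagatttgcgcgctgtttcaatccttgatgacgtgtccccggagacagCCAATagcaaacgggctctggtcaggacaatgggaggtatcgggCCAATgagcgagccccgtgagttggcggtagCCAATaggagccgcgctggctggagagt
HMGB3, plus strand, chrX:150983085-150983334 (TTTGAA at -172, CCAAT at -144, -101 and -55): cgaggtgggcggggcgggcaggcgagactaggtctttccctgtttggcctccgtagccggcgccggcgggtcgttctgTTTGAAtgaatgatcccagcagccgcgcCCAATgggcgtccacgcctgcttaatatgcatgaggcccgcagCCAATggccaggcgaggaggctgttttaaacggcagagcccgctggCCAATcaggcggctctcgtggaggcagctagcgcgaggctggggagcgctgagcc
HMGN2, plus strand, chr1:26472190-26472439 (CCAAT at -22): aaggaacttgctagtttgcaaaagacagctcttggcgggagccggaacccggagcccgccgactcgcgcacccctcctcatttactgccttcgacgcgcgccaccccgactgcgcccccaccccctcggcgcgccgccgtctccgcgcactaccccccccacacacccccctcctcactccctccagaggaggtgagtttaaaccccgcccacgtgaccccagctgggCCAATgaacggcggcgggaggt

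Library totals ran from 20597736 to 28245693 counts, and levels are given as CPM, counts relative to the TMM-scaled library size. A gene was called higher or lower at an adjusted p under 0.05 (edgeR quasi-likelihood test, Benjamini-Hochberg over all tested genes) if its log2 fold change also passed 0.5 in either direction. The fibroblast label was checked against 10 markers, all of which passed the filter: the UK5099 libraries had the lowest summed level (10908 to 11400 CPM), below CTPI2 (18265 to 20053), Sen(IR) (20693 to 21279) and Prol (21364 to 25402), and 6 of the 10 were called lower with UK5099 than in Sen(IR). Of all tested genes, 12.1% were called lower in that comparison. FAP had the largest fall of the 10 markers under UK5099, by a log2 value of -3.45. Its mean was 145 CPM without the inhibitor, in Sen(IR), and 13.2 CPM with it. Mean levels in Sen(IR) and with UK5099 were 4714 and 1601 CPM for COL1A1, 7321 and 3519 for COL1A2, and 2752 and 819 for COL3A1. Other markers hardly moved: DCN stood at 1363 and 1362 CPM, LUM at 357 and 370, and PDGFRB at 156 and 162. The sum of 5 epithelial markers never passed 1.34 CPM in any library. The sum of 5 leukocyte markers was higher in every irradiated library (5.05 to 5.25 CPM in Sen(IR), 5.07 to 6.81 for CTPI2, 4.07 to 4.22 for UK5099) than in Prol, where it was 0.945 to 1.36 CPM. The 2 of these that were tested, CD14 (log2 4.09) and CD68 (0.85), were both called higher in Sen(IR) than in Prol (background 24.8%). These rest on few reads: each Prol library had 4 to 6 for CD14 and 17 to 26 for CD68. Of the CD68 exon bases, 85.6% are shared with other annotated genes. PTPRC never passed 0.310 CPM. The sum of 5 endothelial markers was 356 to 367 CPM in Sen(IR), 300.03 to 330.0 for CTPI2, 207 to 237 for UK5099 and 157 to 206 in Prol, almost all of it TEK, which was called higher in Sen(IR) than in Prol (1.06) and lower with UK5099 than in Sen(IR) (-0.73). KDR, also an endothelial marker, was called lower in both (-2.13 and -1.78), PECAM1 never passed 0.351 CPM and CDH5 never passed 0.219 CPM. The part of these markers in the values of the set was not tested. In bulk RNA, fewer cells of a type and less RNA per cell cannot be told apart.

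The fall of LMNB1 was the largest in the set in irradiated cells, with a further fall under UK5099. LMNB1 (ENSG00000113368, chr5:126776623-126837020, plus strand) stood at 164, 160.5 and 182 CPM in the 3 Prol libraries. It stood at 8.59, 8.30 and 7.85 CPM in Sen(IR), at 2.69, 2.52 and 2.33 CPM in Sen(IR)+UK5099 and at 7.76, 8.01 and 6.58 CPM in Sen(IR)+CTPI2. Prol lay far above every irradiated library, and the UK5099 libraries lay below all others, with 60 to 68 reads each. The log2 fold change of Sen(IR) against Prol was -4.35 (SE 0.0797, adjusted p 2.90e-21), a level 0.0489 times that of Prol. UK5099 lowered LMNB1 by a log2 value of -1.71 against Sen(IR) (SE 0.118, adjusted p 6.01e-11), to 0.305 times the Sen(IR) level. With CTPI2 the difference from Sen(IR) was -0.15 on the log2 scale (95% interval -0.35 to 0.06, adjusted p 0.839), and the libraries overlapped.

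LMNB2 and LMNA fell by less with irradiation, and neither was called under either inhibitor. LMNB2 (ENSG00000176619, chr19:2427638-2456959, minus strand) ranged from 258 to 297 CPM in Prol, from 58.4 to 65.0 CPM in Sen(IR), from 55.4 to 59.1 CPM with UK5099 and from 64.8 to 70.6 CPM with CTPI2. Its log2 fold change in Sen(IR) against Prol was -2.17 (SE 0.0617, adjusted p 2.35e-18). LMNA (ENSG00000160789, chr1:156082573-156140081, plus strand) ranged from 474 to 552 CPM in Prol, from 268 to 271 CPM in Sen(IR), from 242 to 261 CPM with UK5099 and from 266 to 294 CPM with CTPI2. Its log2 fold change in Sen(IR) against Prol was -0.94 (SE 0.0565, adjusted p 1.40e-12), the smallest of the falls called in the set. Against Sen(IR), UK5099 gave log2 differences of -0.13 for LMNB2 (adjusted p 0.105) and -0.09 for LMNA (adjusted p 0.218).

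LBR (ENSG00000143815, chr1:225401502-225428925, minus strand) also fell with irradiation, and its level was higher with UK5099 than in Sen(IR). It stood at 135, 129 and 136 CPM in Prol, at 31.1, 33.2 and 35.2 CPM in Sen(IR), at 41.9, 41.5 and 44.1 CPM with UK5099 and at 28.2, 31.2 and 35.4 CPM with CTPI2. The log2 fold change in Sen(IR) against Prol was -2.01 (SE 0.0703, adjusted p 9.05e-17). All UK5099 libraries lay above all Sen(IR) libraries, by a log2 value of 0.36 (SE 0.0721, adjusted p 3.10e-04), which was under the fold limit for a call. The 2 sterol reductase relatives of LBR were both called higher in Sen(IR) than in Prol (background 24.8%). TM7SF2, which catalyses the same step of cholesterol synthesis as LBR, was higher by a log2 value of 1.81. Its Prol libraries held 32 to 49 reads each. DHCR7, which acts later in that pathway, was higher by 0.66. UK5099 raised TM7SF2 by a further 1.10 on the log2 scale (SE 0.143, adjusted p 1.44e-06, background 8.76% called higher). DHCR7 was not called there (0.14).

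Among the HMGB genes, all 3 fell with irradiation, and with UK5099 HMGB2 was called higher than in Sen(IR) while HMGB1 and HMGB3 were not called. HMGB2 (ENSG00000164104, chr4:173331376-173334432, minus strand) stood at 217, 203 and 229 CPM in Prol, at 23.0, 21.0 and 21.0 CPM in Sen(IR), at 59.3, 60.0 and 62.0 CPM with UK5099 and at 22.6, 21.0 and 21.7 CPM with CTPI2. The UK5099 libraries lay between Prol and the other irradiated groups without touching either. The log2 fold change was -3.32 in Sen(IR) against Prol (SE 0.0638, adjusted p 5.82e-21) and 1.48 in Sen(IR)+UK5099 against Sen(IR) (SE 0.0640, adjusted p 1.85e-14), a level 2.78 times that of Sen(IR). With UK5099 HMGB2 was still 1.84 log2 units below Prol (log2 fold change -1.84, SE 0.0574, adjusted p 7.69e-18). With CTPI2 its log2 difference from Sen(IR) was 0.00 (95% interval -0.14 to 0.15).

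HMGB1 (ENSG00000189403, chr13:30456704-30617597, minus strand) ranged from 652 to 715 CPM in Prol, from 168 to 181 CPM in Sen(IR), from 149 to 159 CPM with UK5099 and from 172 to 175 CPM with CTPI2. Its log2 fold change in Sen(IR) against Prol was -1.96 (SE 0.0520, adjusted p 7.22e-19), and UK5099 gave a log2 difference of -0.16 from Sen(IR) (SE 0.0513, adjusted p 0.0162), too small for a call. HMGB3 (ENSG00000029993, chrX:150980509-150990771, plus strand) ranged from 108 to 111 CPM in Prol, from 41.1 to 45.9 CPM in Sen(IR), from 54.2 to 56.6 CPM with UK5099 and from 44.1 to 45.1 CPM with CTPI2. It fell by a log2 value of -1.32 with irradiation (SE 0.0554, adjusted p 2.19e-15). With UK5099 its libraries all lay above Sen(IR), with a log2 difference of 0.34 (SE 0.0562, adjusted p 3.03e-05) that was likewise under the fold limit. The extracellular HMGB1 signal is known to be read by receptors such as AGER and the Toll-like receptors. Transcripts of 6 such receptors summed to 1.86 to 3.16 CPM over all libraries, and 3 of the 6 passed the filter, so their differences rest on few reads.

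The HMGA genes parted from each other with irradiation and fell together with UK5099. HMGA1 (ENSG00000137309, chr6:34236873-34246231, plus strand) stood at 661, 499 and 661 CPM in Prol, at 174, 164 and 178 CPM in Sen(IR), at 104, 115 and 94.2 CPM with UK5099 and at 215, 195 and 202 CPM with CTPI2. HMGA2 (ENSG00000149948, chr12:65824460-65966291, plus strand) stood at 167, 104 and 153 CPM in Prol, at 161, 157 and 182 CPM in Sen(IR), at 80.5, 79.5 and 71.2 CPM with UK5099 and at 132, 114 and 132 CPM with CTPI2. For HMGA1 every Prol library lay above every irradiated library, whereas for HMGA2 the Prol and Sen(IR) libraries overlapped, and Prol replicate 2 was the lowest Prol library for both genes. HMGA1 fell in Sen(IR) against Prol by a log2 value of -1.82 (SE 0.0856, adjusted p 1.65e-14). HMGA2 was the only gene of the set not called there, with a log2 fold change of 0.24 (SE 0.110, adjusted p 0.0589). Without Prol replicate 2 this value was 0.06 (adjusted p 0.472), and over all alternatives the adjusted p ran from 2.37e-04 to 0.472 with no log2 value above 0.37.

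UK5099 lowered HMGA2 by a log2 value of -1.11 against Sen(IR) (SE 0.112, adjusted p 3.55e-08) and HMGA1 by -0.72 (SE 0.0859, adjusted p 4.42e-07). For both genes, the UK5099 libraries lay below all libraries of the other 3 groups. With CTPI2 the HMGA2 libraries lay below those of Sen(IR), with a log2 difference of -0.40 (95% interval -0.63 to -0.17), and the HMGA1 libraries lay above them, by 0.24 (95% interval 0.07 to 0.42). Neither passed the adjusted limit (edgeR adjusted p 0.165 and 0.394). These p-values moved with the processing: over the alternatives the adjusted p of HMGA2 ran from 1.40e-08, when genes with low counts were kept in the fit, to 0.608, while its log2 value stayed between -0.44 and -0.33. For HMGA1 the adjusted p ran from 0.00633 to 0.813, with log2 values between 0.21 and 0.28. HMGA2 transcripts are known targets of let-7, which LIN28 proteins block, and are bound by IGF2BP proteins. Of 5 LIN28 and IGF2BP genes, 3 were tested, and IGF2BP2 (-0.83) and IGF2BP1 (-0.81) were called lower in Sen(IR) than in Prol (background 22.4%). Under UK5099 edgeR called 0 of the 3 (background 8.76% called higher and 12.1% lower). Their edgeR adjusted p was 0.00106 (IGF2BP2), 6.86e-04 (IGF2BP3) and 0.0381 (IGF2BP1). Of all tested genes, 45.4% passed an adjusted p under 0.05 in that comparison.

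HMGN2 (ENSG00000198830, chr1:26472440-26476642, plus strand) had the same order of groups as HMGB2. It stood at 661, 650.5 and 722 CPM in Prol, at 145, 144 and 145 CPM in Sen(IR), at 246, 261 and 245 CPM with UK5099 and at 153, 150.1 and 150.4 CPM with CTPI2. No group overlapped another. The log2 fold change was -2.23 in Sen(IR) against Prol (SE 0.0512, adjusted p 7.52e-20) and 0.79 in Sen(IR)+UK5099 against Sen(IR) (SE 0.050, adjusted p 1.48e-11), or 1.73 times the Sen(IR) level. The CTPI2 libraries lay just above those of Sen(IR), at a log2 difference of 0.06 (95% interval -0.04 to 0.17, adjusted p 0.886).

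**Figure D1:**
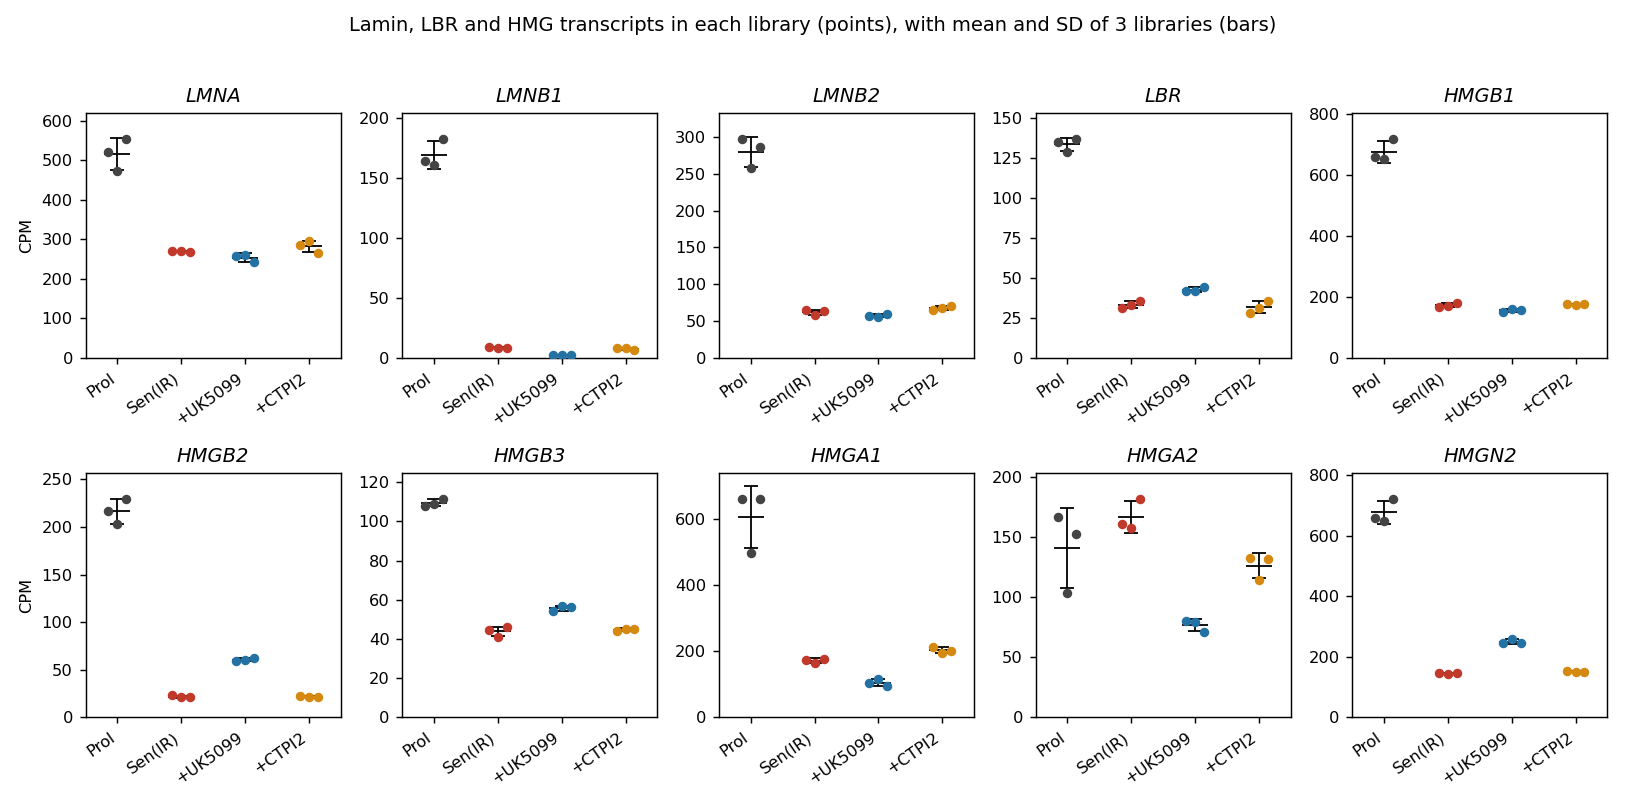
CPM of each gene in each library, on linear axes from 0, with a point per library and bars for the mean and SD of 3 libraries (+UK5099 and +CTPI2 are the irradiated cells with each inhibitor). HMGA2 is the panel in which Prol (104 to 167 CPM) does not lie above Sen(IR) (157 to 182 CPM), and HMGB2 and HMGN2 are those in which UK5099 (59.3 to 62.0 and 245 to 261 CPM) lies farthest above Sen(IR).

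Counted over the set, 9 of 10 genes were called lower and 0 higher in Sen(IR) against Prol, against a background of 22.4% of all tested genes called lower and 24.8% called higher. All 10 had an unadjusted p under 0.05 in the edgeR test (background 70.7%). The libraries of both groups did not overlap for 9 of the 10, against 70.9% of all tested genes. The median log2 fold change was -1.99 over the set and 0.01 over all tested genes. Under UK5099, 2 genes were called higher than in Sen(IR) (background 8.76%) and 3 lower (background 12.1%), and another 3 passed the adjusted p with a change under the fold limit. At any size of change, 8 of the 10 passed the adjusted p (background 45.4%). Groups did not overlap for 9 of the 10 (background 56.6%), and the medians were -0.11 over the set and 0.01 over all tested genes.

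Under CTPI2, edgeR called 0 of the 10 genes against Sen(IR), and DESeq2 also called 0. The background was 0.0185% of all tested genes called higher and 0.148% called lower. At an unadjusted p under 0.05 there were 2 genes, HMGA1 and HMGA2 (background 7.27%). Groups did not overlap for 3 of the 10 genes (HMGA1, HMGA2 and HMGN2; background 15.1%). For the other 8 genes the 95% intervals of the log2 difference lay between -0.35 and 0.25.

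The inhibitors were also set against each other, at concentrations that differ. This comparison tests the difference between their effects, since both are measured from the same 3 Sen(IR) libraries. HMGB2 (log2 1.47, adjusted p 2.12e-14) and HMGN2 (0.73, adjusted p 6.63e-11) were higher with UK5099 than with CTPI2 (background 8.2% called higher). LMNB1 (-1.57, adjusted p 3.50e-10), HMGA1 (-0.96, adjusted p 5.15e-09) and HMGA2 (-0.71, adjusted p 2.21e-05) were lower with UK5099 (background 11.7% called lower). The other 5 genes differed by log2 values from -0.25 (LMNB2) to 0.43 (LBR). All 10 had an adjusted p under 0.05 (background 44.5%), and the libraries did not overlap for any of them (background 53.6%). LBR passed the fold limit when CTPI2 replicate 3 was left out (0.52).

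**Figure D2:**
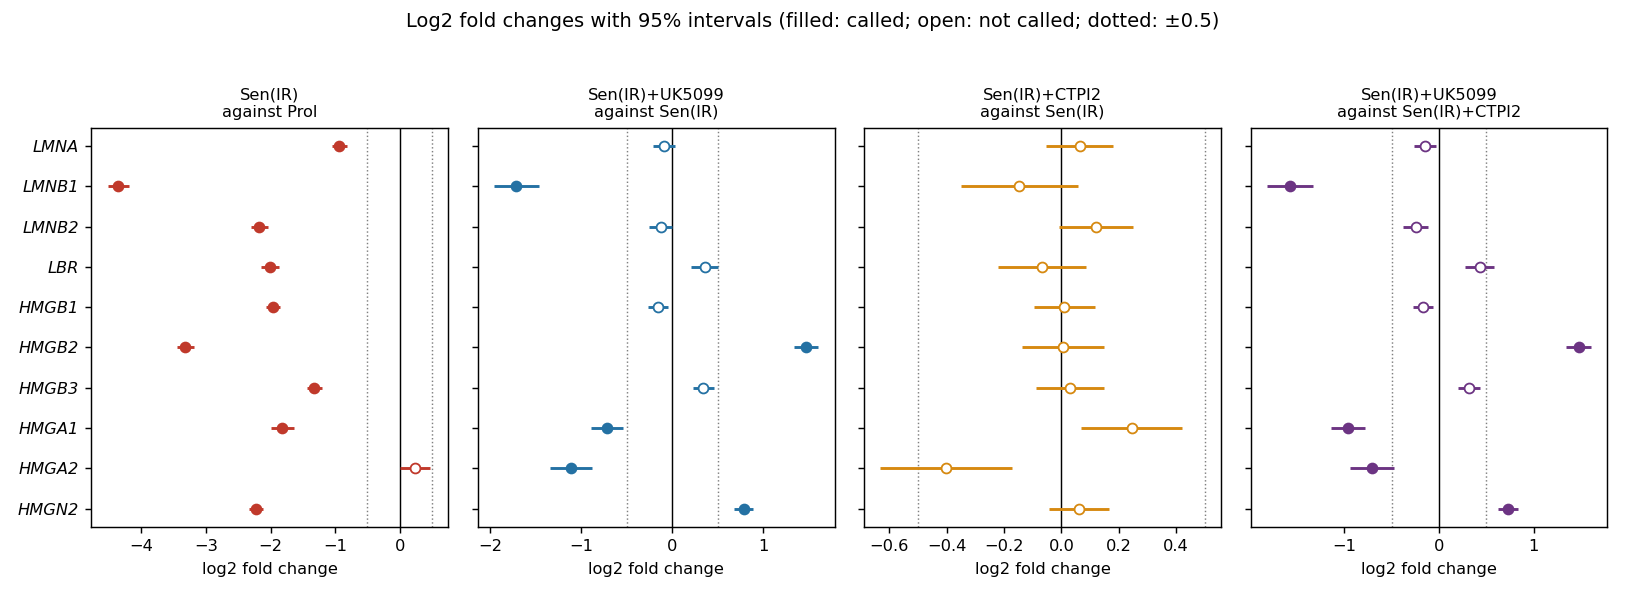
Log2 fold change of each gene with its 95% interval in 4 comparisons, on axes that differ in range between panels. Filled points are called, open points are not, and dotted lines mark the fold limit of 0.5. With UK5099 against Sen(IR) HMGB2 (1.48) and HMGN2 (0.79) lie to the right and LMNB1 (-1.71), HMGA2 (-1.11) and HMGA1 (-0.72) to the left, and with CTPI2 no point passes the limit.

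Ordered by level, Prol was highest for 9 of the 10 genes. For LMNA, LMNB1, LMNB2, HMGA1 and HMGB1 the UK5099 group was lowest, and for LBR, HMGB2, HMGB3 and HMGN2 it came second after Prol. In 10 of 10 genes the difference between Sen(IR) and Sen(IR)+CTPI2 did not pass an adjusted p of 0.05. Between Sen(IR) and Sen(IR)+UK5099 it did not pass for LMNA (0.218) and LMNB2 (0.105). For HMGA2 the order was Sen(IR), Prol, CTPI2 and UK5099, and of the neighbours only CTPI2 and UK5099 differed (adjusted p 2.21e-05).

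Levels were compared between genes per kb of annotated exon. In Prol HMGA1 had the highest level at 261 ± 40.2 CPM per kb (SD, n = 3), followed by HMGN2 at 212 ± 12.1, and HMGA2 had the lowest at 9.36 ± 2.2. The order of the first pair turned with the length used: with the longest annotated transcript as the length, HMGN2 stood at 349 ± 19.9 and HMGA1 at 281 ± 43.4 CPM per kb in Prol. In Sen(IR) HMGA1 was highest at 73.9 ± 3.09 CPM per kb of annotated exon, and LMNB1 had become lowest at 2.27 ± 0.103. HMGA2 in Prol, and HMGA1 and LMNB1 in Sen(IR), kept these places with the longest transcript as the length, although HMGA1 (79.7 ± 3.33) then stood close to HMGN2 (74.7 ± 0.216) in Sen(IR). Within the lamins, LMNB1 made up 28.7 ± 1.09% of the summed level per kb in Prol (SD, n = 3), 4.84 ± 0.193% in Sen(IR), 1.63 ± 0.0909% with UK5099 and 4.16 ± 0.307% with CTPI2. LMNA went from 39.2 ± 0.473% of the lamins in Prol to 70.6 ± 1.04% in Sen(IR).

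Within the HMGB genes, HMGB2 held 43.8 ± 0.822% in Prol, 21.2 ± 1.26% in Sen(IR), 42.3 ± 0.632% with UK5099 and 21.0 ± 0.570% with CTPI2. HMGA2 held 3.43 ± 0.320% of the HMGA genes in Prol, 13.0 ± 0.586% in Sen(IR), 10.2 ± 0.529% with UK5099 and 8.71 ± 0.441% with CTPI2. Shares depend on the gene length used: with the longest annotated transcript as the length, the LMNB1 share was 19.3% in Prol and 2.63% in Sen(IR), and the HMGA2 share was 5.79% in Prol and 20.5% in Sen(IR).

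**Figure D3:**
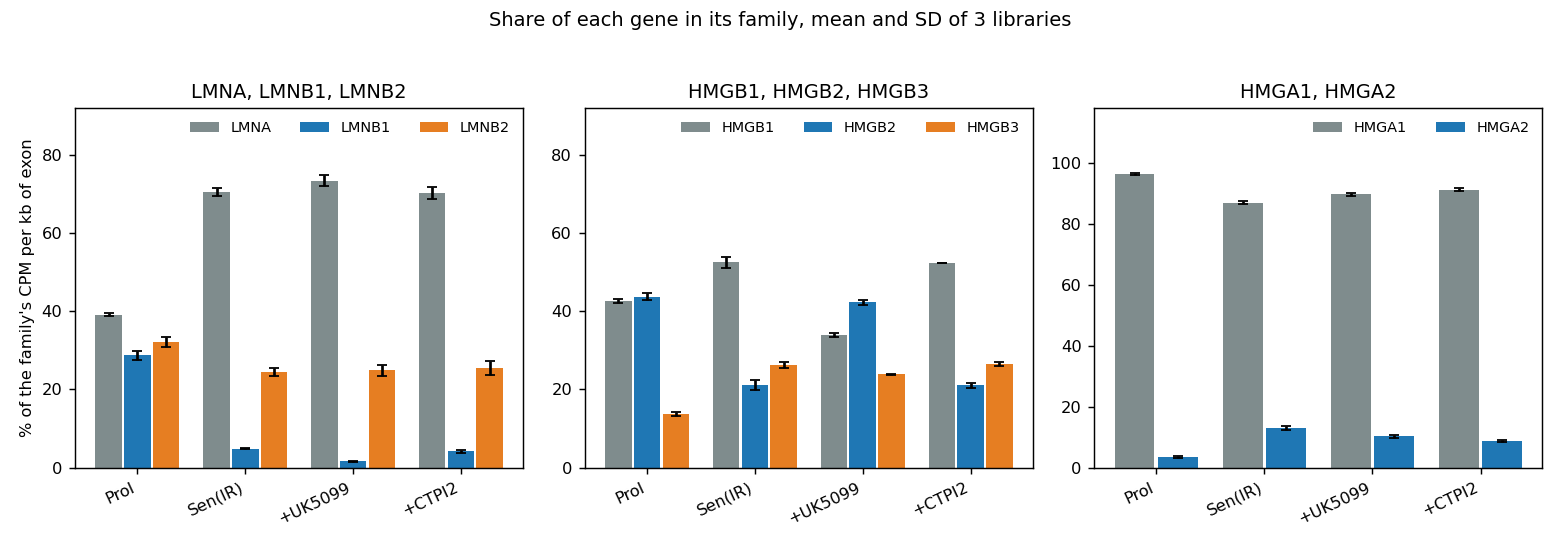
Share of each gene in the summed CPM per kb of its family, as bars from 0 with the SD of 3 libraries. The LMNB1 bar shrinks from 28.7% in Prol to 4.84% in Sen(IR) and 1.63% with UK5099, and the HMGB2 bar is at 43.8% in Prol and 42.3% with UK5099 but at 21.2% in Sen(IR).

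Other genes with HMG boxes and the remaining HMGN genes were counted beside the set. Of 16 listed, 14 were tested (HMGB4 had no count in any library). In Sen(IR) against Prol, 7 were called lower (background 22.4%) and 0 higher (background 24.8%), with a median log2 fold change of -0.47. The largest falls were those of TOX (-2.52), SSRP1 (-2.11), a subunit of the histone chaperone FACT, TOX2 (-1.69) and HMGXB4 (-0.86). UK5099 raised 2 of the 14 against Sen(IR) (background 8.76%) and lowered 0 (background 12.1%). Those raised were TOX, by 0.92 (SE 0.0958, adjusted p 5.88e-08), and HMGN1, by 0.59 (SE 0.0489, adjusted p 1.28e-09). Like HMGN2, HMGN1 encodes a nucleosome-binding protein. HMGN1 ranged from 228 to 245 CPM in Sen(IR) and from 355 to 360 CPM with UK5099. Under CTPI2 edgeR called 0 of the 14 (2 at an unadjusted p under 0.05, background 7.27%).

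Of 15 partners of the lamina, 6 were called lower (background 22.4%) and 1 higher (background 24.8%) in Sen(IR) against Prol. Their median log2 fold change was -0.29. TMPO, which encodes the LAP2 proteins, fell by a log2 value of -3.26 and NRM (nurim) by -2.57. SUN2, which links the lamina to the cytoskeleton, fell by -1.68 and SYNE2 (nesprin-2), its partner in the outer membrane, by -1.25. TOR1AIP2 was higher by 0.55. Under UK5099 edgeR called 0 of the 15, against 8.76% of all tested genes called higher and 12.1% called lower. At an unadjusted p under 0.05 there were 11. The 45.4% of all tested genes with an adjusted p under 0.05 is a stricter measure and cannot be set beside that count. Under CTPI2 edgeR called 0 of the 15 (3 at an unadjusted p under 0.05, background 7.27%). Of 5 genes that process prelamins, 1 was called lower in Sen(IR) against Prol, RCE1 (-0.56, background 22.4%). With UK5099 against Sen(IR) 1 was called lower, FNTB (-0.54, background 12.1%), the beta subunit of farnesyltransferase. None of the 5 was called under CTPI2 by edgeR (1 at an unadjusted p under 0.05, background 7.27%).

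Of 15 genes of heterochromatin and senescence foci, 8 were called lower (background 22.4%) and 0 higher (background 24.8%) in Sen(IR) against Prol. Among the 8 were the histone H3 lysine 9 methyltransferases SUV39H1 (-2.30) and SUV39H2 (-1.78) and the heterochromatin proteins CBX5 (-1.58) and CBX1 (-1.08). With UK5099 1 of the 15 was called lower (background 12.1%), the histone chaperone DAXX (-0.66, adjusted p 2.82e-09). With CTPI2 edgeR called 0 (2 at an unadjusted p under 0.05, background 7.27%).

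Proliferation markers moved beside the set. All 12 were called lower in Sen(IR) against Prol (background 22.4%), by log2 values from -4.88 (PLK1) to -1.64 (PCNA). Their summed level went from 2681 to 3073 CPM in Prol to 284 to 291 CPM in Sen(IR). With UK5099 11 of the 12 were called lower again than in Sen(IR) (background 12.1%), with a median of -1.60, and the sum was 107 to 110 CPM. RRM2 (-3.59), MKI67 (-3.54), CDK1 (-2.68) and TOP2A (-2.44) fell most there. With CTPI2 edgeR called 0 of the 12 (1 at an unadjusted p under 0.05, background 7.27%), and the sum was 277 to 296 CPM. LMNB1 and HMGA1 were thus called lower, like these markers, in both comparisons. HMGB1 also fell in both, but with UK5099 by less than the fold limit (-0.16). HMGB2 and HMGN2 moved with the markers under irradiation and against them under UK5099. LBR (0.36) and HMGB3 (0.34) did the same, with rises under UK5099 that were below the fold limit. The part of proliferation, or of the 6 fibroblast markers called lower with UK5099, in the values of the set was not tested.

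**Figure D4:**
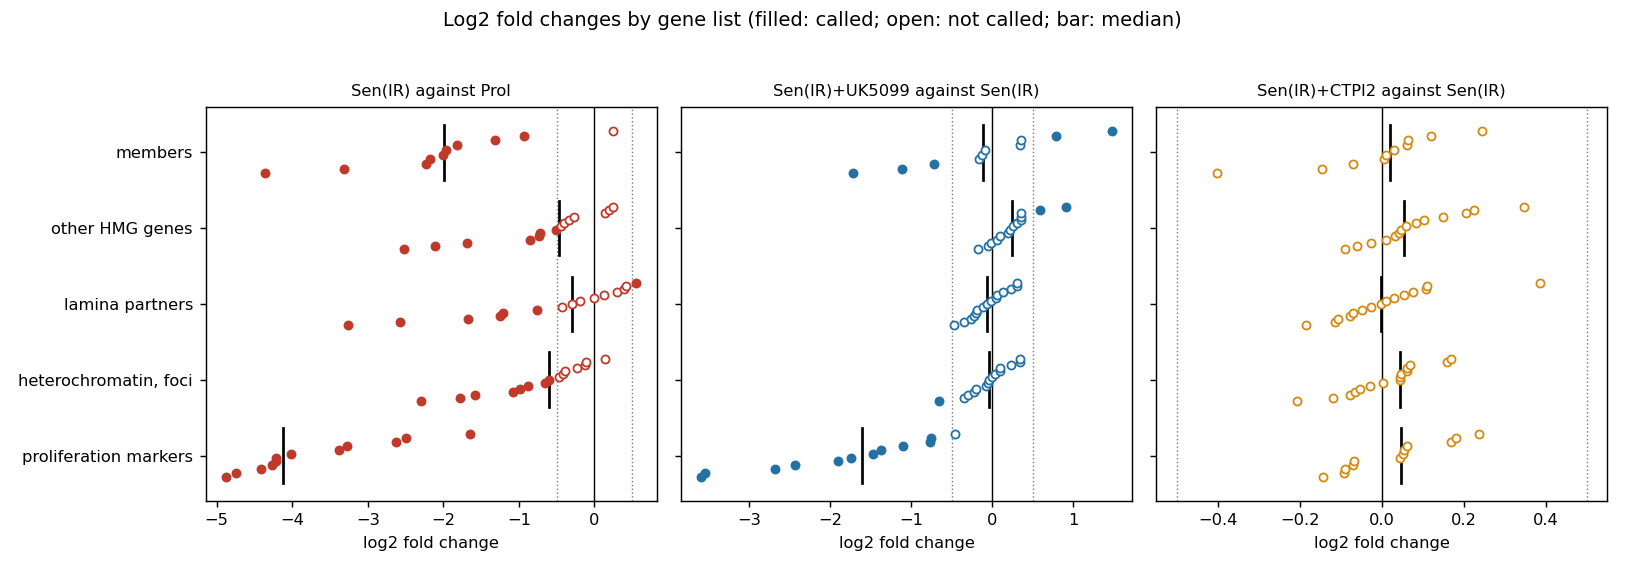
Log2 fold change of each gene by list, in 3 comparisons whose axes differ in range; filled points are called, open points are not, and black bars are medians. The set of 10 genes has a median of -1.99 in Sen(IR) against Prol, between those of the other HMG genes (-0.47) and of the proliferation markers (-4.12), and with UK5099 it spreads to both sides of 0 while the proliferation markers lie to the left.

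Profiles over the 12 libraries were compared by the root-mean-square distance of log2 CPM, each gene centred on its own mean. The closest pair within the set was LMNB2 and HMGB1 (0.105 log2 units), followed by LBR and HMGN2 (0.182) and LMNA and HMGB3 (0.222), and the farthest was LMNB1 and HMGA2 (2.01). Outside the set, DEK was the nearest gene to both LMNB2 (0.0768) and HMGB1 (0.0542), and SSRP1 was among the 3 nearest to both. The nearest to LMNB1 were TROAP (0.159), FST (0.162) and NUSAP1 (0.190). HMGB2 had no near match, its nearest being RFLNB at 0.436, whereas the nearest to HMGN2 were CNTRL (0.0946), RFLNB (0.123) and TOX (0.130). The nearest to LMNA was U2AF2 (0.0443), to LBR MCM6 (0.124), to HMGB3 SKP2 (0.0518), to HMGA1 MARCHF4 (0.115) and to HMGA2 NCEH1 (0.135). All profiles share the same libraries, so these distances describe likeness in 12 libraries and carry no test.

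HMG genes have many processed pseudogenes. When only unique alignments are counted, reads that fit the gene and a copy equally well are left out. The table lists 48 rows named as pseudogenes of HMGB1, 36 of HMGN2, 29 of HMGB3, 8 of HMGA1 and 1 of HMGB2. Their counts came to 5.23% of those of HMGB1, 3.18% of those of HMGN2 and under 1% for the others. No call changed when they were added to the parent gene. The addition does not bring back reads that were left out, so the size of that loss is not known. The exons of HMGA2 overlap those of the opposite-strand HMGA2-AS1 over 2.55% of their bases. Strand use in the counting is not given in the sources used here, so reads of both genes cannot be told apart there.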

How the data were processed

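RNA of MRC5 fibroblasts was sequenced in 12 libraries (4 groups of 3). Per the methods and the submitters' processing notes, the authors used Trimmomatic 0.36 for trimming, STAR 2.5.2b for alignment to GRCh38 and featureCounts (Subread 1.5.2) for counting uniquely aligned reads over the exons of each gene. The deposited values are raw counts of 57500 genes. Depth was 20597736 to 28245693 counts per library.

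Here, edgeR 4.0.16 (R 4.3.3) was run on all 12 libraries together: low counts were removed by filterByExpr, sizes scaled by TMM, and group means fitted by glmQLFit and compared by glmQLFTest, with no replicate term. SE is the absolute log2 fold change over the square root of F. On simulated counts of the UK5099 comparison, 171 of 195 changed genes among 15737 tested were recovered, with 3 false calls. Alternatives were DESeq2 1.42.0, scaling by upper quartile or RLE, an unfiltered fit, fits of the compared groups alone, a replicate block, other limits and leaving out each library. Positions and exon lengths came from GENCODE v44 (56410 identifiers matched). All 10 genes are named; up to 4 called genes per list are named by size of change, and the 3 nearest profiles were found per gene. The genes and lists were chosen with earlier results of these data known.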

Additional observations from a re-analysis of the deposited data

How the results depend on the processing

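Under DESeq2, scaling by upper quartile or RLE, an unfiltered fit, a fit of the 2 compared groups alone, an unadjusted p, added pseudogene counts (chosen after seeing the data) and each library left out, the counts of genes called stayed within 1.5 times the reported ones. When calls needed a log2 fold change past 1, 1 gene was called higher with UK5099 against Sen(IR), and 1 higher and 1 lower with UK5099 against CTPI2, by construction. Upper-quartile scaling shifted the median of all genes by 0.12 on the log2 scale in Sen(IR) against Prol, where 4729 genes were then called higher and 2939 lower (4033 and 3644 as reported), and changed no call in the set. Signs turned only for values near 0 with CTPI2 against Sen(IR), none of them called. HMGB2 was at -0.0021 with RLE, -0.0041 with upper-quartile scaling, -0.0012 without the filter and -0.0023 with DESeq2. With a library left out, values ran from -0.022 to 0.052 for HMGB2, from -0.012 to 0.042 for HMGB1, from -0.015 to 0.063 for HMGB3 and from -0.16 to 0.0050 for LBR. The cause was not tested.

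The replicate block left the counts of called genes at 0 higher and 9 lower in Sen(IR) against Prol, 2 and 3 with UK5099 against Sen(IR), 0 and 0 with CTPI2 against Sen(IR), and 2 and 3 with UK5099 against CTPI2. Deviations of same-numbered libraries correlated at -0.094 to 0.061 across genes over all pairs of groups, and none passed 0.1, so the numbers were not taken to pair the samples.

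LMNB1 in Sen(IR)+UK5099 rests on 60 to 68 reads per library, and its SE of 0.118 was the widest in that comparison. With 3 libraries per group, small differences such as those with CTPI2 were resolved only to the 95% intervals given.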
